A study of Mus musculus with 6 samples.

Results

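The Bcl2 family, the caspases and the inhibitors of apoptosis were described in mouse LSK cells, a sorted bone marrow fraction (lineage markers absent, cKit and Sca1 present) that holds stem cells and early multipotent progenitors. The list has 37 symbols chosen by name, with earlier results of these data known. For each, the brightest probe set (the group of array probes for 1 transcript) over the 6 arrays stood for the gene, and probe sets that name several genes were allowed. Of the 37, 36 were analysed, out of 19324 genes named on the array, and Bax was not analysed here. RNA was measured on 1 Affymetrix array per sample in 3 WT and 3 N1IC samples. The WT genotype was Mx1-cre, a transgene that makes Cre recombinase after polyIC, and N1IC mice carried it together with a lox-stop-lox N1-IC allele, which yields the active intracellular part of the receptor Notch1 once Cre has acted. All mice got 3 doses of polyIC, a double-stranded RNA that induces interferon, at 20 mcg per g of body weight from the age of 21 days, and were 5 weeks old when cells were sorted, 2 weeks after the last dose. The treatment text of the labels names floxed Ncstn alleles instead of N1-IC, and the groups here follow titles and genotype labels. Cre from Mx1-cre acts in many cell types, so N1-IC need not have been switched on in LSK cells alone. The WT group held 2 males and 1 female, replicate 2, and the N1IC group 3 females.

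Proteins of the Bcl2 family decide whether the outer membrane of mitochondria is opened. Pro-survival members hold the effectors in check, BH3-only members oppose the pro-survival ones, and opened mitochondria release cytochrome c, which assembles with Apaf1 into a platform that activates caspase proteases. Inhibitors of apoptosis restrain caspases, and death receptors reach them by another route, through Fadd. In blood stem cells and lymphoid progenitors, Bcl2 and Mcl1 are known as survival factors.

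Values are log2 intensities, and differences on that scale are N1IC minus WT, between group means. Median intensities of the 6 arrays were 89.0 to 92.4, and precision is limited by having 3 arrays a group. Hes1, a direct target of Notch, was 13.4-fold higher in N1IC, and Notch1 itself 1.66-fold higher. Kit, which defines the sorted fraction, lay between 11.58 and 11.94 in WT and between 11.45 and 11.57 in N1IC. RNA levels of cell type markers differed between the groups: 10 of 10 T-lineage markers were higher in N1IC, while 8 of 9 stem cell, 6 of 7 B-lineage, 6 of 8 granulocyte-macrophage progenitor and 6 of 7 megakaryocyte markers were lower. Of 8 mast cell and basophil markers 3 were higher, Mcpt1, Gzmb and Cpa3, and none was called lower. In that list 6 stood above 0 and 2 below, Ms4a2 at -1.02 and Mcpt8 at -0.56, with a median difference of 1.75. Its mean level lay between 6.92 and 8.43 on the WT arrays and between 9.61 and 10.57 in N1IC. Of 7 macrophage markers 2 were higher, C1qb and C1qc, and none was called lower. There 3 stood below 0, among them Cd68 at -1.04, and the median difference was 0.02, so the macrophage list did not move as a whole. The part of these cell types in the differences below was not tested, and in such bulk samples fewer cells of a type and less RNA per cell cannot be told apart. WT replicate 1 had the lowest WT levels of mature neutrophil and monocyte markers, with a mean over 10 genes of 9.75 against 11.41 and 11.31 on the other WT arrays. The same array was the lowest of WT in each other cell type list except that of stem cells, where it was the highest.

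Of the 36 genes, 3 rose and 4 fell in N1IC by limma with Benjamini-Hochberg adjustment over all 18557 probe sets tested, at an adjusted p under 0.05. The genes that rose were Bcl2l14, Pmaip1 and Casp1, and those that fell were Bcl2, Bnip3, Casp12 and Bok. These 7 are 19.4% of the list, where 11.6% of all probe sets were called, 3.4% higher and 8.22% lower. The arrays of the groups did not overlap for 17 genes, 8 higher and 9 lower, or 47.2% of the list. Over all probe sets this held for 32.9%, with 13.3% higher and 19.6% lower. The median difference was -0.06 over the list and -0.01 over all probe sets, so the list had no common direction.

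**Figure D1:**
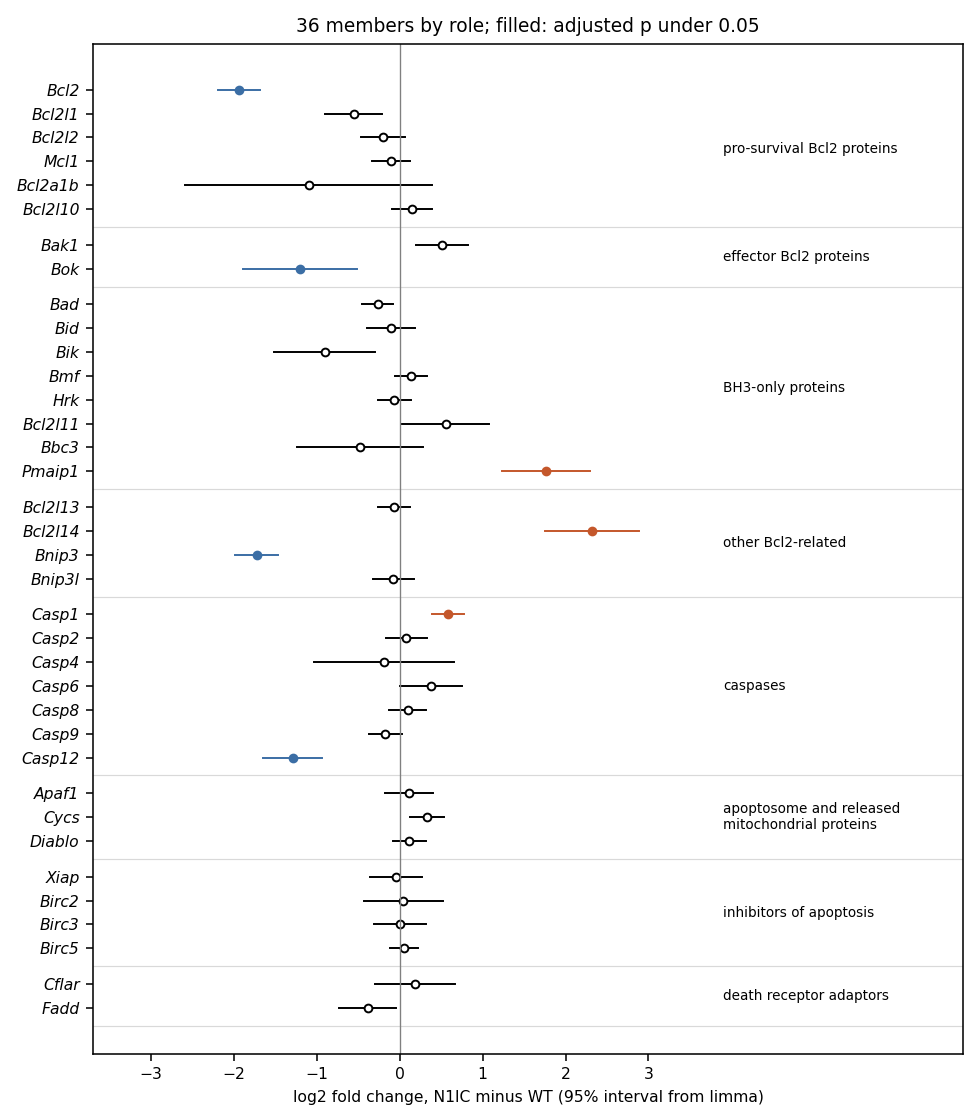
Log2 fold change (N1IC minus WT) of the 36 genes on the x axis, ordered by role, with the 95% interval from limma (3 arrays per group); filled points passed an adjusted p of 0.05. Bcl2 (-1.94), Bnip3 (-1.73), Casp12 (-1.29) and Bok (-1.20) lie to the left, Casp1 (0.58), Pmaip1 (1.76) and Bcl2l14 (2.32) to the right, and most other intervals cross 0.

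Of the 6 pro-survival genes, 1 fell, none rose and 5 did not pass the test, with a median difference of -0.38. Bcl2, the founding pro-survival member, stood at 11.39, 11.62 and 11.31 in WT replicates 1 to 3 and at 9.48, 9.58 and 9.45 in N1IC. All N1IC arrays lay far below all WT arrays, and the 3 within each group were close together. Bcl2 was thus 3.83-fold lower, with a difference of -1.94 ± 0.10 (SE, n = 3; limma, Benjamini-Hochberg adjusted p = 0.00064). It has 5 probe sets, and all 5 were lower in N1IC, by 0.76 to 1.94, of which 4 passed when each probe set was tested on its own. Its call was kept in all 22 alternative analyses, where the difference lay between -2.12 and -1.55.

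The other pro-survival genes gave smaller or less certain differences. Bcl2l1, which encodes Bcl-xL, stood at 9.47, 9.02 and 9.23 in WT and at 8.52, 8.79 and 8.73 in N1IC. The groups did not overlap, but the difference of -0.56 (95% interval -0.90 to -0.21) had an adjusted p of 0.0598 by limma, and 1 of its 4 probe sets went the other way. Mcl1, a short-lived survival protein, lay between 12.71 and 12.84 in WT and between 12.51 and 12.73 in N1IC. Its difference was -0.10 with an interval of -0.33 to 0.12, so that a change as large as that of Bcl2 lies outside it. Bcl2l2, which encodes Bcl-w, differed by -0.20 (interval -0.47 to 0.06), and the dim Bcl2l10 by 0.14 (interval -0.10 to 0.38).

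Bcl2a1b, an NF-kB-induced survival gene of myeloid and lymphoid cells, was measured on a probe set shared with its near-identical copies Bcl2a1a and Bcl2a1d, which it cannot tell apart. It stood at 9.37, 11.51 and 11.07 in WT and at 9.32, 10.24 and 9.09 in N1IC. WT replicate 1 lay among the N1IC arrays, and the difference of -1.10 had a wide interval of -2.59 to 0.39. Markers of granulocyte-macrophage progenitors were also lowest among WT arrays on WT replicate 1, with a mean over 8 genes of 11.72 against 12.63 and 12.41, and lay between 9.47 and 10.35 in N1IC. This was not particular to myeloid cells. Natural killer markers, for example, had a mean over 6 genes of 7.68 on WT replicate 1 against 9.49 and 9.19, and lay between 7.64 and 8.11 in N1IC. Without WT replicate 1 the difference was -1.74 with an adjusted p of 0.0498 by limma, and without any other single array the adjusted p was 0.285 or more. The part of any of these cell types in the difference was not tested.

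**Figure D2:**
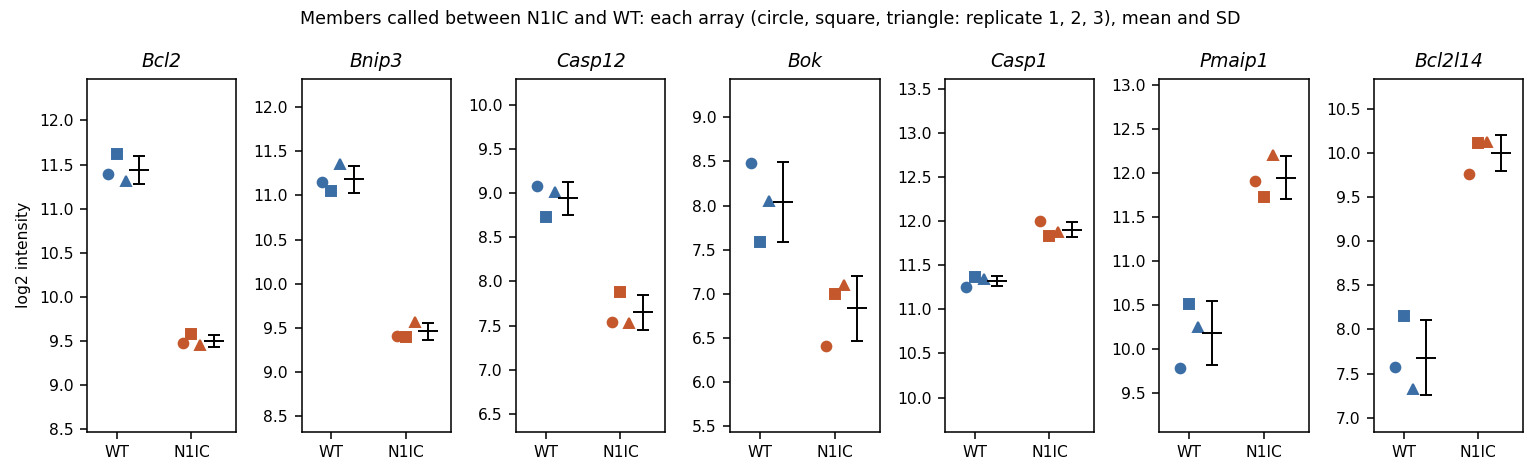
Log2 intensity (y axis, each panel spanning 4 units) on every array for the 7 genes that passed the test, with WT in blue and N1IC in orange; the bar is the mean with its SD (n = 3). The groups do not overlap in any panel, and the gaps are narrowest for Casp1 (11.37 in WT to 11.84 in N1IC) and Bok (7.58 in WT to 7.09 in N1IC).

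Of the 2 effector genes analysed, Bok fell and Bak1 did not pass. Bok, an effector-like protein found largely at the endoplasmic reticulum, stood at 8.48, 7.58 and 8.05 in WT and at 6.41, 7.0 and 7.09 in N1IC. It was 2.31-fold lower (-1.20 ± 0.28, SE, n = 3, adjusted p = 0.0471 by limma). That call is the least firm of the 7: it was lost in 14 of 21 alternatives, among them the removal of any single array other than WT replicate 2, where the adjusted p lay between 0.083 and 0.128. Bak1, which forms pores in the mitochondrial membrane, went the other way, at 10.40, 10.72 and 10.76 in WT and 10.98, 11.23 and 11.20 in N1IC. The arrays did not overlap and the difference was 0.51 (interval 0.19 to 0.83), with an adjusted p of 0.0603 by limma. Its dimmer probe set differed by 0.95 and passed when each probe set was tested on its own (adjusted p = 0.041).

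Among the 8 BH3-only genes, which encode the sensors that set off the pathway, 1 rose, none fell and 7 did not pass. Pmaip1, which encodes Noxa, a partner of Mcl1 and Bcl2a1 proteins, stood at 9.79, 10.51 and 10.26 in WT and at 11.91, 11.73 and 12.21 in N1IC. Every N1IC array was more than a log2 unit above the highest WT array. The gene was 3.39-fold higher (1.76 ± 0.22, SE, n = 3, adjusted p = 0.00652 by limma). Pmaip1 is also a known target of p53 and of interferon. Of 12 other p53 targets, 1 was higher and 3 were lower in N1IC, with a median difference of 0.08, and 6 had p under 0.05 by limma without adjustment. Over all probe sets, 11.6% passed even after adjustment, and the share with an unadjusted p under 0.05 was not counted. Unadjusted counts, here and below, are therefore descriptions and not results about a list. Of 13 interferon response genes, 2 were higher and none lower, with a median of 0.08. Without adjustment 6 of the 13 had p under 0.05 by limma: Isg15 and Gbp2, which passed, stood at 1.79 and 0.50, and Mx1, Ifit2, Oasl2 and Oas1a at -1.92, -0.57, -0.57 and -0.29.

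Bcl2l11, which encodes Bim, the main BH3-only protein of lymphocytes and blood progenitors, stood at 11.04, 11.03 and 10.36 in WT and at 11.40, 11.53 and 11.16 in N1IC. The groups did not overlap, yet WT replicate 3 lay well below the other WT arrays and the difference of 0.55 (interval 0.03 to 1.08) had an adjusted p of 0.167 by limma. All 5 of its probe sets were higher in N1IC, by 0.23 to 1.25, and 1 of them, the dimmest, passed when tested on its own (adjusted p = 0.0478). Bik, a BH3-only protein of the endoplasmic reticulum, was measured by dim probe sets. It stood at 5.48, 6.30 and 6.40 in WT and at 5.26, 5.11 and 5.08 in N1IC, a difference of -0.91 (interval -1.52 to -0.30) with an adjusted p of 0.0737 by limma. Without WT replicate 1, which was the lowest WT array here as for Bcl2a1b, the difference was -1.20 and the adjusted p 0.004.

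Bad, which is held inactive by survival signals that phosphorylate it, showed a small shift between tight groups, at 11.05, 11.14 and 11.15 in WT and 10.82, 10.93 and 10.78 in N1IC (adjusted p = 0.0821 by limma). Bmf, a sensor tied to the cytoskeleton, stood at 7.86, 7.95 and 7.91 in WT and 7.96, 8.14 and 8.04 in N1IC, again without overlap but with a difference of only 0.14. Bid, which links death receptors to mitochondria, Hrk, and Bbc3, the p53 target Puma, overlapped between the groups, with differences of -0.11, -0.07 and -0.48. For Bbc3 the interval reached from -1.24 to 0.28, and N1IC replicate 2, at 6.43, lay apart from 7.34 and 7.51.

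Of the 4 other relatives of Bcl2, 1 rose and 1 fell. Bcl2l14, which encodes Bcl-G, a family member whose role in cell death is unsettled, had the largest rise of the list. It stood at 7.57, 8.15 and 7.32 in WT and at 9.77, 10.11 and 10.13 in N1IC, 4.99-fold higher (2.32 ± 0.23, SE, n = 3, adjusted p = 0.00352 by limma). Both of its probe sets passed on their own, and the call was kept in all 21 alternatives that could measure it. Bnip3, a mitochondrial protein that marks mitochondria for removal by autophagy and is induced by low oxygen, stood at 11.15, 11.05 and 11.35 in WT and at 9.41, 9.40 and 9.57 in N1IC. It was 3.31-fold lower (-1.73 ± 0.11, SE, n = 3, adjusted p = 0.000938 by limma), and this call was kept in all 22 alternatives. Of 12 other genes induced by low oxygen, none passed the test in either direction and their median difference was 0.00. By limma without adjustment, 2 of the 12 had p under 0.05, and they went opposite ways, P4ha1 at -0.70 and Bhlhe40 at 0.94. Bnip3l, the close relative of Bnip3 with the same role in autophagy, was measured on a probe set shared with a pseudogene and differed by -0.08 (interval -0.32 to 0.17). Bcl2l13 differed by -0.07.

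Promoter sequence is shown for the 3 genes whose calls held in every alternative and for Casp12, to set members that changed beside the short sequences that Notch and oxygen are known to act through. The windows are the 250 bases before the start, from RefSeq on GRCm38.p6, in the direction of the gene: chr1:106714291-106714540 on the minus strand for Bcl2, chr6:134396079-134396328 on the plus strand for Bcl2l14, chr9:5345226-5345475 on the plus strand for Casp12, and chr7:138909507-138909756 on the minus strand for Bnip3. Capitals mark TGGGAA, the core bound by the Notch partner RBPJ, on either strand in the first 3, and ACGTG, the core bound by hypoxia-inducible factors, on either strand in Bnip3.
Bcl2: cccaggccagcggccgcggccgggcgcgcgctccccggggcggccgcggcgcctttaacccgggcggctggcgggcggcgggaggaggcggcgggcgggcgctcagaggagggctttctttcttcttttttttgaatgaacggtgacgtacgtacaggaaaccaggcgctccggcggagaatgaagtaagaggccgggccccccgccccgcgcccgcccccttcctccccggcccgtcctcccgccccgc
Bcl2l14: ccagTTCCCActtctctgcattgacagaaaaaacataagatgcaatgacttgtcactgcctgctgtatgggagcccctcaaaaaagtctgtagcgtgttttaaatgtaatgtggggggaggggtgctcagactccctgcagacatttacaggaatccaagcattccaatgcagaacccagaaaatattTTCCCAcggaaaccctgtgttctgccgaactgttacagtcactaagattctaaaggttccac
Casp12: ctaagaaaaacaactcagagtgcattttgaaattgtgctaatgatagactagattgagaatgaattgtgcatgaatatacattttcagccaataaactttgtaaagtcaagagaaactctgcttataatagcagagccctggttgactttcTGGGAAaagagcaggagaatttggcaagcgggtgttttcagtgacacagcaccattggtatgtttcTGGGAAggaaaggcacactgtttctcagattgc
Bnip3: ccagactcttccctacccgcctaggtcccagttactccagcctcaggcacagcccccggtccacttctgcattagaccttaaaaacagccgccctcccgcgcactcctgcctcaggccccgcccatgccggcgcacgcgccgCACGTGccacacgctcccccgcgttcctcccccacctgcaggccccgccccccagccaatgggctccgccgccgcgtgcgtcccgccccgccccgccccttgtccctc
The Bcl2 window holds no TGGGAA, while that of Bcl2l14, which rose, and that of Casp12, which fell, hold 2 each, and a further RefSeq start of Bcl2l14 has none. The windows of Bnip3 and of Casp1 and Bok, called members not shown here, hold no TGGGAA either. The 2 matches of ACGTG in Bnip3 are the overlapping readings of 1 palindrome, on opposite strands. The window of Casp1, which rose, holds 2 such overlapping matches as well. TGGGAA is found in 21.6% of the 32851 such windows of all genes and in 12 of the 45 windows counted for 32 members. ACGTG is found in 16.6% and in 8 of 45. The member counts left out windows on 1 chromosome, a filter that was not set for the shares over all genes. The 4 members without a counted window are Pmaip1, Bik, Bcl2l10 and Bnip3l. A match of this length is a description of the letters and not a binding site.

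**Figure D3:**
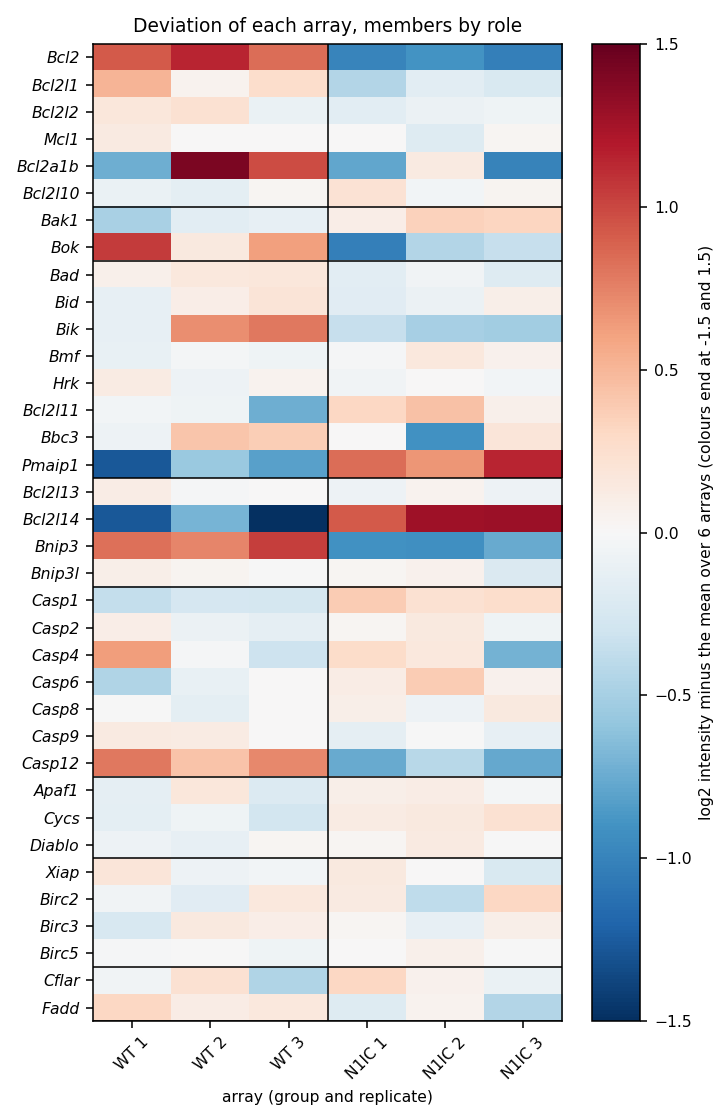
Each array's log2 intensity minus the gene's mean over the 6 arrays (colour), for the 36 genes in rows by role and the arrays in columns, WT on the left. Bcl2, Bnip3, Casp12, Pmaip1 and Bcl2l14 split cleanly at the group border, Bcl2a1b sets WT replicate 1 apart from WT replicates 2 and 3, and the inhibitors of apoptosis are paler.

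Of the 7 caspase genes, 1 rose, 1 fell and 5 did not pass. Both that moved belong to the inflammatory branch rather than to the cascade of apoptosis. Casp1, the protease of the inflammasome that matures interleukin 1 beta, stood at 11.26, 11.37 and 11.35 in WT and at 12.00, 11.84 and 11.88 in N1IC. It was 1.5-fold higher (0.58 ± 0.08, SE, n = 3, adjusted p = 0.00924 by limma). Casp12, a relative linked to inflammation and to stress of the endoplasmic reticulum, stood at 9.09, 8.73 and 9.02 in WT and at 7.54, 7.88 and 7.52 in N1IC, 2.45-fold lower (-1.29 ± 0.14, SE, n = 3, adjusted p = 0.00482 by limma). Both probe sets of Casp12 fell when tested on their own. Casp4, the third inflammatory caspase, varied within groups, at 10.41, 9.76 and 9.47 in WT and 10.05, 9.94 and 9.07 in N1IC, and its interval was wide, -1.03 to 0.66.

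None of the 4 caspases of the death cascade passed, and none had an unadjusted p under 0.05 by limma. Casp8, the initiator recruited by death receptors, differed by 0.10 (interval -0.13 to 0.32), Casp2 by 0.08 (interval -0.16 to 0.32), and both overlapped between groups. Casp9, the initiator activated on Apaf1, stood at 11.56, 11.54 and 11.42 in WT and 11.28, 11.41 and 11.30 in N1IC, just without overlap, with a difference of -0.18 and an adjusted p of 0.233 by limma. Casp6, an executioner, stood at 9.01, 9.36 and 9.47 in WT and 9.58, 9.85 and 9.53 in N1IC, a difference of 0.37 with an adjusted p of 0.188 by limma, while its dimmer probe set went the other way at -0.29.

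None of the 3 genes of the apoptosome and the proteins released with it passed, and 1, Cycs, had an unadjusted p under 0.05 by limma. Cycs, which encodes cytochrome c, stood at 12.40, 12.47 and 12.27 in WT and 12.67, 12.69 and 12.77 in N1IC, without overlap. Its difference was 0.33 (interval 0.12 to 0.53) with an adjusted p of 0.0611 by limma, and all 4 of its probe sets were higher in N1IC. Apaf1 and Diablo, which encodes the antagonist Smac of the inhibitors of apoptosis, overlapped between groups and each differed by 0.11.

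None of the 4 inhibitors of apoptosis passed, none had an unadjusted p under 0.05 by limma (0 of 4), and the groups overlapped for all 4. Birc5, which encodes survivin, a protein of dividing cells, was the tightest, between 12.86 and 12.92 in WT and between 12.92 and 13.00 in N1IC, with a difference of 0.05 (interval -0.12 to 0.22). Of 15 genes of dividing cells measured beside it, none passed the test, 2 had p under 0.05 by limma without adjustment, and their mean level lay between 11.52 and 11.57 in WT and between 11.55 and 11.62 in N1IC. Xiap, the direct caspase inhibitor, differed by -0.04 (interval -0.36 to 0.27), Birc2 by 0.04 (interval -0.44 to 0.52) and Birc3 by -0.0019 (interval -0.32 to 0.31). The sign of these 3 small differences changed with the analysis, and the dimmer probe set of Birc3 stood at 0.68. Of the 7 probe sets of Xiap, 2 were lower in N1IC and the rest were higher, by up to 0.75. None of the 7 passed when each probe set was tested on its own. Of the 2 adaptor genes of death receptors, Cflar, an inactive relative of caspase 8 that blocks it, differed by 0.18 and overlapped. Fadd, which bridges receptor and caspase, stood at 9.43, 9.24 and 9.27 in WT and 8.92, 9.17 and 8.68 in N1IC, a difference of -0.39 (interval -0.73 to -0.04) with an adjusted p of 0.147 by limma.

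**Figure D4:**
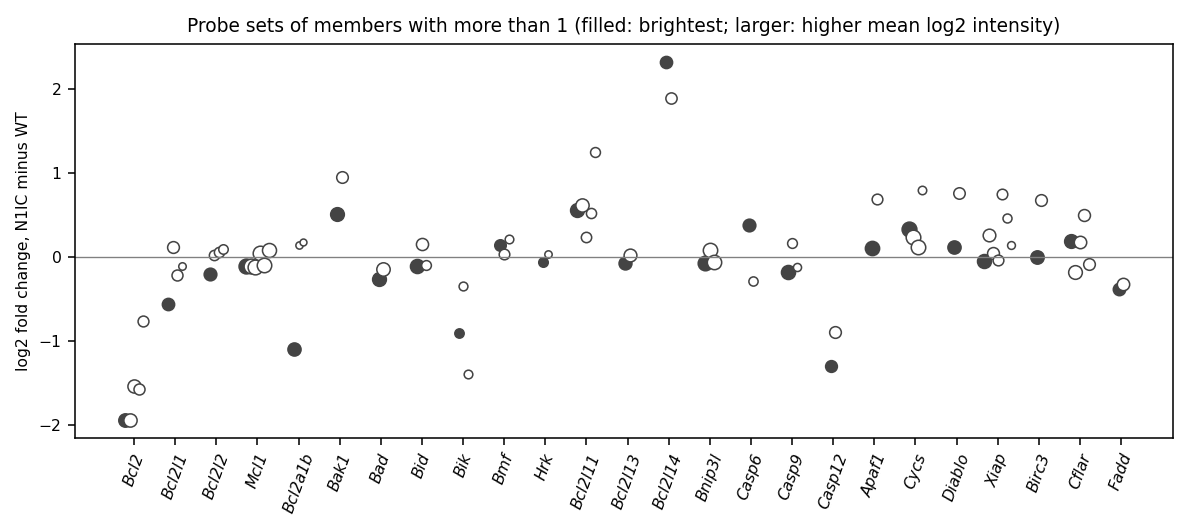
Log2 fold change (N1IC minus WT, y axis) of every probe set of the 25 genes with more than 1; the filled point is the brightest, which stands for the gene, and larger points have a higher mean log2 intensity. The 5 probe sets of Bcl2 all lie below 0 and the 5 of Bcl2l11 all above it, while the brightest probe set of Bcl2a1b (-1.10) has no counterpart among its 2 dim ones.

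Other genes of the pathway were read from 4 lists, of which 72 of 82 genes were measured: 2 rose and 7 fell, and their median difference was -0.07. These 9 calls are 12.5% of the 72, close to the 11.6% over all probe sets. In the death receptor list, 2 of 17 rose and 2 fell. Fasl, the ligand of Fas, stood at 3.64, 3.93 and 4.39 in WT and at 6.78, 6.38 and 6.53 in N1IC, 5.97-fold higher from a dim WT signal (2.58 ± 0.21, SE, n = 3, adjusted p = 0.00198 by limma). Its receptor Fas was 2.43-fold lower, at 5.75 ± 0.25 against 7.03 ± 0.57 (SD, n = 3; adjusted p = 0.0473 by limma), and Tnfrsf1a, a receptor for tumour necrosis factor, 2.56-fold lower, at 9.48 ± 0.28 against 10.84 ± 0.07. Tnfsf10, the ligand Trail, was 1.43-fold higher with an adjusted p of 0.0499 by limma. The calls of Fas and Tnfsf10 held without WT replicate 1 and were lost without each of the other 5 arrays. Over the 4 lists, 4 genes rose without WT replicate 1 and 1 without any other array. The number that fell was 4 without WT replicate 2, WT replicate 3 or N1IC replicate 2, and 3 without N1IC replicate 1.

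In the list of survival signalling, 2 of 20 genes fell and none rose. Pim2, a kinase that promotes survival, was 2.23-fold lower at 8.06 ± 0.10 against 9.22 ± 0.21 (SD, n = 3), and Foxo1, a transcription factor restrained by Akt, was 2.70-fold lower at 8.57 ± 0.499 against 9.998 ± 0.256. Without WT replicate 2 or 3 or N1IC replicate 1, Foxo1 had an adjusted p between 0.0642 and 0.0839 by limma. Il7r, the receptor through which interleukin 7 sustains lymphoid progenitors, was named after its values were seen and differed by 1.34 with an adjusted p of 0.067 by limma. In the inflammasome list, 2 of 7 fell: Gsdmd, the pore-forming protein cut by inflammatory caspases, by 0.50 on the log2 scale, and Il18, a cytokine matured by Casp1, by 0.95. Without any single array other than WT replicate 1, Gsdmd had an adjusted p of 0.0694 or more by limma, and without any other than WT replicate 2 or N1IC replicate 3, Il18 had one between 0.0771 and 0.0963. In the list of mitochondrial and execution genes, 1 of 28 fell: Pea15a, a death effector domain protein, was 3.04-fold lower.

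Sex was nearly confounded with group, so the members were also set against WT replicate 2, the only WT female. Against that array alone the N1IC mean differed by -2.12 for Bcl2, -1.59 for Bnip3, -1.08 for Casp12, -0.75 for Bok, 0.54 for Casp1, 1.44 for Pmaip1 and 1.85 for Bcl2l14. With sex as a covariate, a fit that rests on the same contrast, Bcl2, Bnip3 and Bcl2l14 passed (adjusted p = 0.00799, 0.0169 and 0.0264 by limma). The spread in that fit comes from the 2 WT males and the 3 N1IC arrays, and the lone WT female is assumed to vary like them. Casp12, Pmaip1, Casp1 and Bok did not pass in that fit, with adjusted p values of 0.0594, 0.073, 0.111 and 0.346 by limma, and over all probe sets the calls fell from 631 higher and 1526 lower to 116 and 328. Whether sex or the smaller contrast accounts for those losses was not tested.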

How the data were processed

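Gene expression was measured in 3 WT and 3 N1IC samples of LSK cells. The deposited intensities, 1 per probe set, are linear, and per the submitters' processing notes the authors used RMA, whose version and settings no source used here gives. RNA was amplified before labelling, per the labels' protocols, which can widen the spread of dim genes. No gene is called absent, since detection calls were not used. Log2 was taken, and of 45101 probe sets, 34958 named 1 gene and 932 several. Each gene was represented by its brightest probe set, which gave 18557 probe sets. The groups were compared in R 4.3.3 with limma 3.58.1, by a two-sided moderated test without covariates. P-values were Benjamini-Hochberg adjusted over these probe sets and called under 0.05. Residual and prior degrees of freedom were 4 and 2.00. The fit was also run on simulated data with independent noise. These held no sex or cell type difference, so that run checks the code and not the calls made here. Whether cells of several mice were pooled is not stated, so p-values measure the spread between these samples. Plots were drawn with matplotlib 3.10.9.

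The members and the other gene lists were chosen with earlier results of these data known. All members are accounted for; those called or without overlap are given on every array, and of each other pathway list up to 6 called genes are named. The promoter motifs and the genes whose promoters are shown were chosen after the values were seen. Alternatives were a replicate block, a sex covariate, female mice only, other normalizations, filters on dim probe sets, other choices of probe set, an offset of 16, other eBayes priors, array weights, thresholds of 0.01 and 0.1, and leaving out each array.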

Additional observations from a re-analysis of the deposited data

How the results depend on the processing

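Bcl2, Bnip3 and Bcl2l14 kept their calls under every alternative that could measure them; 2 of these, the sex covariate and female mice only, rest on 1 WT array, assumed to vary like the others. The 3 higher and 4 lower members became 1 and 2 with a sex covariate, 1 and 3 with female mice only, 5 and 5 with only the brighter 60% of probe sets (33 members), 5 and 4 with an intensity trend, and 5 and 7 at a threshold of 0.1. Leaving out 1 array gave 3 higher in each case and 3 to 5 lower; the 5 came without WT replicate 1, where Bik and Bcl2a1b passed and Bok did not. The 2 higher and 7 lower genes of the other pathway lists became 1 and 1 with a sex covariate, 1 and 3 with female mice only or at a threshold of 0.01, 4 and 8 at 0.1, 7 and 7 with probe sets averaged per gene, and 6 and 7 with an intensity trend. With repeated quantile normalization, median centring or a robust prior 1 was higher and 7 lower, with every probe set on its own 1 and 6, and with the brighter 40% only 3 and 3. Leaving out 1 array gave 1 to 4 higher (4 without WT replicate 1) and 3 to 7 lower (3 without N1IC replicate 1). The cause of these shifts was not tested.

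The numbers of the replicates did not pair the samples: deviations of same-numbered arrays from their group means correlated at -0.08, -0.07 and 0.07 over the probe sets tested. With the replicate block 2 members were higher and 3 lower, Casp1 (adjusted p = 0.055 by limma) and Bok (0.132) not passing, and in the other pathway lists 1 was higher and 4 lower; over all probe sets 355 were higher and 926 lower.

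Members near 0, none of them called, changed sign. With female mice only and with a sex covariate, Hrk stood at 0.038, Apaf1 at -0.12, Xiap at 0.059 and Cflar at -0.13. Birc3 stood at 0.0081 with median centring and at 0.34 with probe sets averaged, where Xiap stood at 0.23. Leaving out 1 array moved Casp4 between -0.39 and 0.12, Xiap between -0.13 and 0.058, Birc2 between -0.10 and 0.24, Birc3 between -0.12 and 0.071 and Bnip3l between -0.13 and 0.012. The levels of dim genes such as Bcl2l10, Hrk and Bik were not checked against background, since detection calls were not used.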
